A study of Drosophila melanogaster with 76 samples.

Results

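The regions described here are the ChIP-seq peaks on the Drosophila melanogaster X chromosome outside its pericentromere. They are all peaks of 40 deposited lists with a midpoint below 22 Mb of X on build dm6, merged over the lists wherever they overlapped. The rule used position alone. It gave 3027 regions from 28421 peaks, of 31952 regions and 287995 peaks in the whole series. The autosomal arms outside their pericentromeres (2L, 2R, 3L and 3R, 91 Mb together) held 19624 regions from 193294 peaks and served as the comparison. The region just inside the limit of 22 Mb (X:21995657-21999516) had peaks in 12 lists, and the one just outside (X:22001110-22002106) had peaks in 11 lists.

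Male flies carry a single X and females a pair, and fly males raise transcription from their X through the MSL complex, which is guided by the noncoding RNAs roX1 and roX2. In the early embryo the dose of X-linked genes such as sisA, sc, run and upd1 sets whether Sxl, the master gene of sex determination, is switched on. Zelda, itself encoded by the X gene zld, is the DNA-binding factor that opens chromatin at the first zygotic genes. GAF binds GA repeats and keeps promoters open. IntS11 is the nuclease of the Integrator complex, which cuts the 3′ ends of small nuclear RNAs and stops RNA polymerase II (Pol II) early at many genes, and pSer5 is the form of Pol II phosphorylated on serine 5 during initiation and early elongation.

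Zelda, GAF, Pol II and pSer5 were mapped in wild-type and mutant embryos labelled 1–1.5 h and 2.5–3 h, giving 2 lists per condition. The labels name formaldehyde fixation and duplicate reactions. For IntS11 there were wild-type embryo lists of the 2 stages, and for Pol II there were also larval lists labelled 48AEL, wild-type or ZygoticMutant. Titles of wild-type and mutant embryo samples alike carry the words IntS11 mislocalized (those of the IntS11 and larval lists do not), so the genotype was read from the words WT and Mutant. The labels give neither the allele, nor what the wild type of that experiment carries, nor the sex of the animals, nor whether the duplicate reactions came from separate collections. The p-values for genotype and stage therefore measure the spread between these lists, which may be technical. Those from sign flips instead measure how far antibodies and stages agree, all of them read on the same chromosomes. The lists give positions alone, which leaves the sequencing depth unknown. Wild-type embryo lists held 1278 to 11683 peaks and mutant ones 2584 to 12202. In bulk material of this kind, fewer bound cells and weaker binding per cell cannot be told apart.

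The X regions were fewer per Mb than those of the arms and more often found in wild type alone. There were 137.6 merged regions per Mb of X against 215.6 on the arms, with median lengths of 865 and 697 bp. Of the X regions, 40.4% overlapped a gene end, meaning the 500 bp either side of an annotated gene start or end, against 35.3% on the arms. The X also has fewer genes, 99.7 per Mb against 127.4, and 14.8% of its sequence lies in gene-end windows against 17.97% on the arms. In embryos, 1608 X regions (53.1%) had peaks in wild-type lists alone, 555 (18.3%) in mutant lists alone and 770 (25.4%) in both. On the arms 40.7% were wild-type only and 27.1% mutant only. These shares are descriptions of merged lists of different lengths. Regions of the 3 classes lay at different places in the genome. Gene ends were overlapped by 50.6% of the wild-type-only X regions, by 42.1% of those in both genotypes and by 7.03% of the mutant-only ones. Of the mutant-only X regions, 49.0% lay outside annotated genes altogether, against 16.3% of those on the arms.

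Individual X regions ranged from 210 bp to 20946 bp. The longest (X:7078218-7099163) had peaks in 32 lists and holds an end of Sxl together with mir-4956 and CG4615. Of the X regions, 1069 (35.3%) had peaks in at most 2 lists and 335 in at least 20. The region found in most lists, 39 of 40, was X:4929927-4934967 within CG44774, an annotated gene whose role is not given in the sources used here. It was followed by X:6274297-6280268, in 37 lists, with the ends of Spt6, a histone chaperone of elongating Pol II, CG3566 and the ubiquitin gene Ubi-p5E. A region of 16734 bp at X:2290195-2306928, in 36 lists, holds the ends of CG2865 and Raf, a kinase of the Ras pathway. The other two of the top 5, also in 36 lists, were X:563636-568354 within Appl, the fly homologue of the amyloid precursor, and X:3727640-3729767 within Tlk, a chromatin-linked kinase. Both had peaks in all 20 wild-type and all 16 mutant embryo lists and in no larval list.

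Wild-type embryos carried fewer peaks per Mb on X than on the autosomal arms with all 5 antibodies. Zelda had 61.6 and 58.5 peaks per Mb of X in its 2 lists at 1–1.5 h, against 107.0 and 101.2 on the arms. Pol II had 49.8 and 46.4 against 84.4 and 81.4 at 2.5–3 h. The smallest deficit was that of GAF at 1–1.5 h, with 45.8 and 42.6 against 55.6 and 50.4. The largest was that of IntS11 at 1–1.5 h, with 5.45 and 4.82 against 12.3 and 11.1. The density on X was below that of every single arm in 20 of 20 wild-type embryo lists, and its ratio to the arms ran from 0.433 to 0.844, with a median of 0.587. Over the 10 wild-type groups the mean log2 ratio was −0.72 (two-sided sign-flip permutation over 10 group means, p = 0.00195, the smallest possible here; adjusted p = 0.00684 over the 7 joint tests). Counted per annotated gene in place of per Mb, the mean log2 ratio was −0.37 (sign-flip permutation, adjusted p = 0.0205), and single lists ran from −0.86 to 0.11.

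Antibodies differed in the size of the deficit. The mean log2 ratio in wild type was −0.79 ± 0.00 for Zelda, −0.26 ± 0.03 for GAF, −0.78 ± 0.03 for Pol II and −0.74 ± 0.00 for pSer5 at 1–1.5 h (SD, n = 2 lists each). At 2.5–3 h it was −1.05 ± 0.01 for Zelda, −0.47 ± 0.03 for GAF, −0.79 ± 0.04 for Pol II and −0.36 ± 0.01 for pSer5. IntS11 had −1.19 ± 0.03 and −0.79 ± 0.02 at the 2 stages. So Zelda and GAF had the lower ratio at the later stage, pSer5 and IntS11 the higher one, and the 2 Pol II groups overlapped. Over the 5 antibodies the later stage differed by 0.06 (exact permutation within antibody, p = 0.430, adjusted p = 0.602), which did not pass. The log2 ratio of median peak lengths, X over the arms, was −0.08 (sign-flip permutation p = 0.0430), which did not pass after adjustment (adjusted p = 0.1003).

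**Figure D1:**
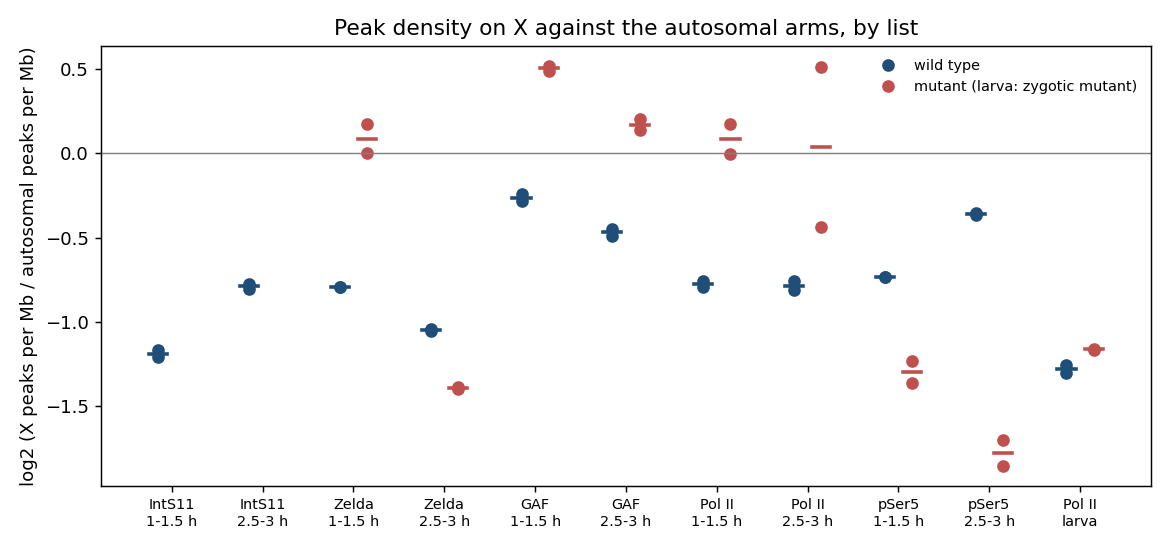
The vertical axis is log2 of peaks per Mb on X below its pericentromere over peaks per Mb on the 4 autosomal arms, with 1 point per list and a bar at the mean of the 2 lists, by antibody and stage. All wild-type points lie below 0, from −1.21 to −0.24 in embryos, while mutant points lie from −1.86 to 0.52.

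In mutant embryos the balance between X and the arms moved in different directions with different antibodies. For GAF at 1–1.5 h, X had 30.9 and 26.1 peaks per Mb against 22.01 and 18.2 on the arms, so the X was the denser part in both mutant lists. The log2 ratio was 0.50 ± 0.02 there, and 0.17 ± 0.05 at 2.5–3 h (SD, n = 2). Mutant pSer5 lists were at the opposite end. At 2.5–3 h they had 19.6 and 17.5 peaks per Mb of X against 63.9 and 63.4 on the arms, a log2 ratio of −1.78 ± 0.11, and at 1–1.5 h the ratio was −1.30 ± 0.09. Zelda had 0.09 ± 0.12 at 1–1.5 h, from lists at 0.17 and 0.00, and −1.39 ± 0.01 at 2.5–3 h. Pol II had 0.08 ± 0.12 at 1–1.5 h. With X below 21 Mb the early mutant means turned negative, at −0.11 for Zelda and −0.19 for Pol II. Its 2 mutant lists at 2.5–3 h stood far apart, at 0.51 and −0.44. X held 13.4 and 14.6 peaks per Mb in them, and the arms 9.38 and 19.8. Their mean was 0.04, and −0.46 with X below 21 Mb.

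Wild-type and mutant ratios did not overlap in any of the 8 comparisons, but with 2 lists a side the exact permutation p was 0.333 each time, the smallest possible. The ratio was higher in the mutant for GAF and Pol II at both stages and for Zelda at 1–1.5 h, by 0.64 to 0.88. It was lower for Zelda at 2.5–3 h (−0.34) and for pSer5 (−0.56 and −1.42). With X below 21 Mb the Pol II lists at 2.5–3 h overlapped between genotypes, with a difference of 0.29 in place of 0.82, and pSer5 at 1–1.5 h differed by −1.08. The other 7 comparisons stayed without overlap and all 8 kept their direction. Measured as covered length, pSer5 at 1–1.5 h went the other way (0.14). The mean over the 8 comparisons was 0.21 (exact permutation within antibody and stage, p = 0.251, adjusted p = 0.440), which did not pass. It was −0.06 with X taken below 21 Mb.

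The gene-end share of X peaks varied with the antibody in wild-type embryos, and in mutant embryos it ran from 6.83% to 34.2%. In wild-type embryos, Pol II peaks on X overlapped gene ends more often than on the arms, 73.1% and 74.4% against 67.0% and 68.0% at 1–1.5 h, and 71.4% and 71.7% against 62.2% and 63.1% at 2.5–3 h. For pSer5 the X shares were 71.9% and 69.6% against 65.3% and 62.4%, then 66.9% and 67.8% against 59.2% and 59.8%. In all 8 of these lists X lay above every arm. GAF went the other way, with 49.0% and 47.2% against 55.5% and 54.1%, then 41.0% and 43.2% against 49.6% and 52.2%. IntS11 at 1–1.5 h had 39.2% and 39.6% against 53.1% and 57.3%, although its X lists held only 120 and 106 peaks. For Zelda the shares were close, 46.4% and 46.0% on X against 47.9% and 46.6% at 1–1.5 h, then 46.5% and 46.7% against 48.0% and 47.1%. Over the 10 wild-type groups the mean difference was −0.69 points (sign-flip permutation p = 0.789, adjusted p = 0.789), which averages over opposite signs.

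In mutant embryos the X peaks of Pol II and pSer5 overlapped gene ends much less often than those of the arms. Mutant Pol II had 17.2% and 17.6% on X at 1–1.5 h against 35.1% and 33.1%, and 7.12% and 6.83% at 2.5–3 h against 18.9% and 20.9%. Mutant pSer5 had 10.7% and 11.8% against 29.3% and 29.0%, then 18.8% and 21.8% against 34.8% and 36.2%. X lay below every arm in 13 of 16 mutant lists. The difference between X and the arms changed between genotypes by −22.95 and −21.8 points for Pol II and by −24.8 and −22.99 points for pSer5, at 1–1.5 h and 2.5–3 h in turn. It changed by −1.74 and −9.27 points for Zelda, and by 2.73 and 3.55 points for GAF. With X below 21 Mb the early Zelda value turned to 0.87, with overlapping lists, and early GAF had 4.56. The mean over the 8 comparisons fell by 12.2 points (exact permutation p = 0.000301, adjusted p = 0.00211), with a fall in 6 of 8. With Zelda and GAF alone, chosen after seeing the data, it was −1.18 points (exact permutation p = 0.3904, adjusted p = 0.602), and with Pol II and pSer5 alone −23.1 points (exact permutation p = 0.00154, the smallest possible there). The difference between these pairs of antibodies was not tested.

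Mutant X peaks gathered at a few places along the chromosome, above all next to the pericentromere. The 1 Mb window from 21 to 22 Mb held 0.943% to 3.26% of the X peaks in the 20 wild-type embryo lists, with a median of 2.29%, and 3.68% to 32.9% in the 16 mutant lists, with a median of 16.7%. The 2 sets did not overlap. In the mutant it was the densest of 22 windows in each group other than GAF at 2.5–3 h. The share reached 32.9% and 32.3% in the mutant Pol II lists at 2.5–3 h, none of whose peaks there overlapped a gene end. In the mutant Zelda lists, too, 0% of the peaks there did, against 48% to 60% in wild-type Zelda lists. The most proximal Mb of the autosomal arms held on average 5.19% to 8.66% of an arm's peaks in wild-type lists and 6.06% to 18.1% in mutant ones. Single arms could exceed X. In mutant GAF the highest arm had 19.8% and 20.0% at 1–1.5 h, against 16.6% and 16.2% on X. At 2.5–3 h it had 12.1% and 10.7%, against 3.68% and 6.11% on X. In the other mutant lists X lay above the highest arm, though in some by little. The first Pol II list at 2.5–3 h had 32.9% against 31.5%, and the Zelda lists of that stage 12.1% against 11.2% and 10.4% against 10.1%. The first Zelda list at 1–1.5 h had 16.7% against 15.2%. This window was singled out after seeing the data, and its part in the genotype differences was measured by leaving it out. With X below 21 Mb and every autosomal window 1 Mb shorter, the joint change in gene-end share was −8.02 points (exact permutation p = 0.00475, adjusted p = 0.0166) and that in density −0.00437 (exact permutation, adjusted p = 0.980).

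**Figure D2:**
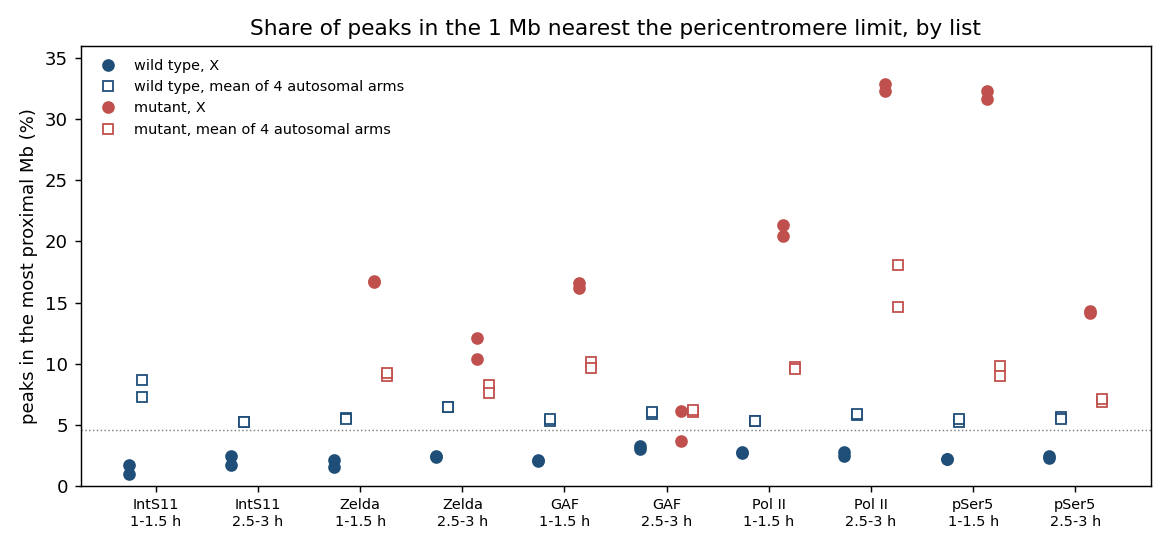
The vertical axis is the percentage of peaks in the 1 Mb nearest the pericentromere limit, 1 point per embryo list, with filled circles for X and open squares for the mean of the 4 autosomal arms, and a dotted line at the 4.55% that even spacing along X would give. Wild-type X points lie at 0.943% to 3.26%, mutant X points at 3.68% to 32.9%.

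Along the whole of the X, peak number ranked with gene number in most wild-type groups. Across the 22 windows of 1 Mb, which share the same lists, Spearman's rho between mean peak number and gene number was 0.81 and 0.86 for wild-type pSer5 at the 2 stages, 0.79 and 0.77 for Pol II, 0.42 at both for GAF, and 0.34 and 0.49 for Zelda. For IntS11 it was −0.10 and 0.59. In the 8 mutant groups it ran from −0.33 to −0.05. The windows from 0 to 1 Mb and from 14 to 15 Mb also held a higher share in the mutant than in wild type in 8 of 8 comparisons. In mutant Pol II at 2.5–3 h they held 11.7% and 8.75% of the X peaks, against 5.67% and 1.65% in wild type. A higher share did not always mean more peaks. In the first Mb the mean peak number rose only for GAF at 1–1.5 h, from 45 to 52, and fell otherwise, for Pol II at 2.5–3 h from 60 to 36. From 14 to 15 Mb it fell for Zelda, from 25 to 19.5 and from 28.5 to 10.5, and rose for the other antibodies. These windows, too, were chosen after seeing the data.

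Some X regions were found with nearly every antibody in the mutant. Peaks in at least 12 of 16 mutant embryo lists marked 118 X regions, or 5.36 per Mb, against 3.16 per Mb on the arms. Of these 118, 29 lay from 21 to 22 Mb, 16 in the first Mb, and 9 each from 9 to 10 Mb and from 14 to 15 Mb. Gene ends were overlapped by 13.6% of them on X and by 36.1% on the arms. On X, 59 of the 118 had no peak in any wild-type embryo list and 7 had one in all 20. On the arms the matching counts were 96 and 90 of 288. The longest without any wild-type embryo peak and present in all 16 mutant lists was X:21711366-21716691, 81218 bp from the nearest gene in the table used, DIP1. The next were X:21662346-21666880, 32198 bp from DIP1, and X:59970-63630 near the tip of the chromosome. Whether repeated sequence underlies these regions was not tested.

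Most wild-type X regions had no peak in the mutant, and how X compared with the arms depended on the antibody. A region counted as kept with peaks in both lists of each genotype, as lost where the wild-type pair had peaks and the mutant pair had none, and as gained in the opposite case. For GAF at 2.5–3 h, 390 of 863 X regions (45.2%) were kept, against 29.7% on the arms and 34% over all chromosomes. At 1–1.5 h, 107 of 825 (12.97%) were kept, against 9.85% and 11.5% over all chromosomes. X was above every arm in both. For pSer5 it was below every arm at both stages. At 1–1.5 h, 20 of 888 X regions (2.25%) were kept, against 9.85% on the arms and 9.1% over all chromosomes. At 2.5–3 h, 57 of 1176 (4.85%) were kept, against 24.1% on the arms and 20.7% over all chromosomes.

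Zelda at 2.5–3 h was the other comparison with X below every arm, with 63 of 851 regions kept (7.40%), against 14.6% on the arms and 13.5% over all chromosomes. At 1–1.5 h, 54 of 1116 Zelda regions were kept (4.84%), within the range of the arms and close to the 5.12% over all chromosomes. Pol II was within the range of the arms at both stages, with 69 of 719 kept at 1–1.5 h (9.60%, against 12.5% over all chromosomes) and 7 of 869 at 2.5–3 h (0.806%, against 1.09%). Over the 8 comparisons the kept share differed between X and the arms by −2.31 points (exact sign-flip permutation p = 0.531, adjusted p = 0.620), lower in 6 of 8, which did not pass. With an overlap of at least 50% of a region required, the mean was 0.62 points.

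Losses made up most of the remainder. Zelda regions of X were lost in 1018 cases at 1–1.5 h (91.2%, against 91.4% over all chromosomes) and in 763 at 2.5–3 h (89.7%, against 78.1%). GAF regions were lost in 670 cases (81.2%, against 82.7%) and in 378 (43.8%, against 55.6%). Pol II regions were lost in 617 cases (85.8%, against 82.2%) and in 858 (98.7%, against 97.8%). Those of pSer5 were lost in 850 cases (95.7%, against 83.1%) and in 1084 (92.2%, against 70.7%). Lost X regions were shorter than kept ones in each comparison, with medians of 627 to 1171.5 bp against 964 to 3509 bp. The same held on the arms, with medians of 672 to 1192 bp against 1505 to 4081 bp. An overlap of 1 bp was enough for a region to count as kept.

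The share of mutant X regions that were gained lay above that of every arm in 8 of 8 comparisons, and in 7 of 8 with X below 21 Mb. Counts of gained X regions were 125 of 186 for Zelda at 1–1.5 h (67.2%, against 69.2% over all chromosomes, pericentromeres included, and 35.7% on the arms) and 96 of 174 at 2.5–3 h (55.2%, against 36.4% and 12.7%). For GAF they were 299 of 450 (66.4%, against 73.6% and 59.1%) and 51 of 463 (11.02%, against 20.2% and 7.22%). For Pol II they were 269 of 347 (77.5%, against 86.3% and 52.1%) and 223 of 232 (96.1%, against 95.2% and 78.9%). For pSer5 they were 308 of 331 (93.1%, against 88.9% and 66.2%) and 201 of 284 (70.8%, against 56.4% and 32.2%). The exception below 21 Mb was GAF at 1–1.5 h, whose 60.6% fell within the range of the arms. Gained regions overlapped gene ends in 7.02% to 29.4% of cases on X, and they were shorter than the kept ones in each comparison, with medians of 453 to 939 bp against 964 to 3509 bp. On the arms, too, they were shorter than the kept ones, with medians of 553 to 1212 bp.

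**Figure D3:**
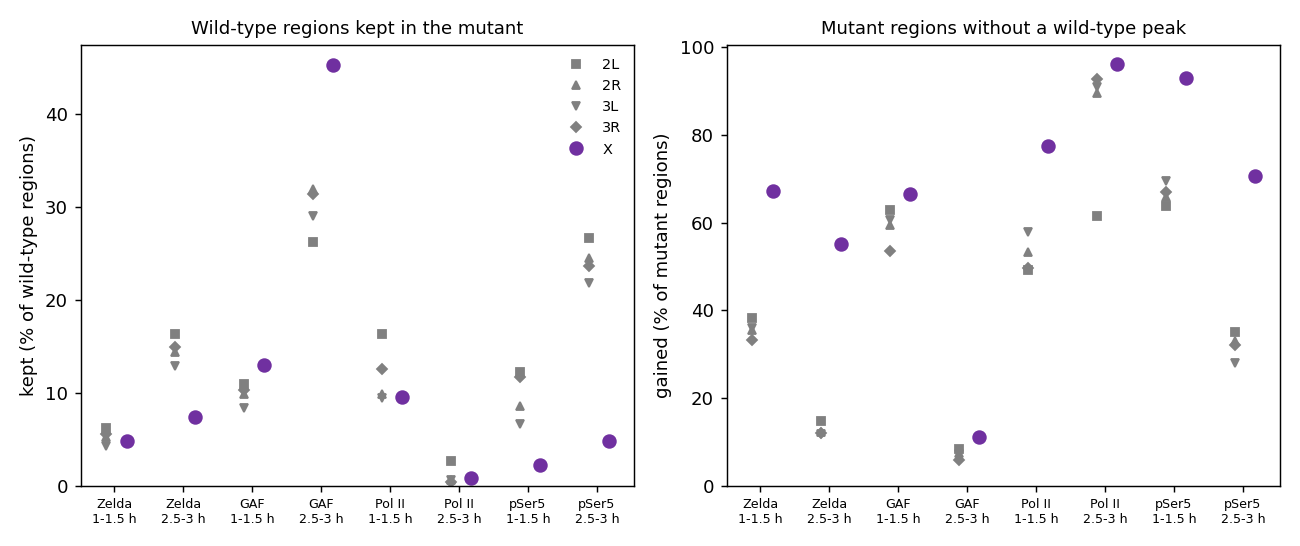
The left panel gives the percentage of wild-type regions kept in the mutant, the right panel the percentage of mutant regions without a wild-type peak, with 1 point for each chromosome arm and purple circles for X. On the left X lies above every arm for GAF and below every arm for pSer5 and for Zelda at 2.5–3 h, and on the right it lies above every arm in all 8 comparisons.

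The longest wild-type X regions give examples of each outcome. The longest lost Zelda region at 1–1.5 h was X:6981340-6989425, with 8086 and 7983 bp under peaks in the wild-type lists and none in the mutant, at the end of bou, a secreted protein needed for septate junctions, and within ogre, an innexin. GAF kept its region there at 2.5–3 h, with 9228 and 9866 bp in wild type against 8955 and 9746 bp in the mutant, while Pol II lost its own at 1–1.5 h (4035 and 4238 bp in wild type). The largest kept GAF region at 2.5–3 h was X:3769950-3781597 at mir-4962 within Tlk, with 11256 and 11648 bp in wild type against 7664 and 10963 bp in the mutant. For Pol II at 1–1.5 h the second longest kept region, 4699 and 4691 bp in wild type against 697 and 615 bp in the mutant, lay at lawc and Trf2, a TBP-related factor that serves promoters without a TATA box. At 2.5–3 h that locus lost Pol II over 7255 and 6578 bp. The longest lost pSer5 region at 2.5–3 h, X:6972858-6989412 with 16555 and 16406 bp, again covered ogre and bou. The longest kept one other than Sxl and arm ran over CG6961, S6KL, Atg101 and bnb, with 13471 and 12975 bp in wild type against 5649 and 4391 bp in the mutant.

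At the single-gene level X genes were bound less often than autosomal ones in wild type. Binding of a gene meant that each list of the pair had a peak at one of its ends. Zelda bound 34.8% of the 2194 X genes at 1–1.5 h and 27.7% at 2.5–3 h, against 47.8% and 45.4% of the 11592 genes on the arms. For pSer5 at 2.5–3 h the shares were 57.3% and 61.5%, and for GAF at that stage 24.5% and 32.4%. Fates of bound X genes followed those of the regions for pSer5 and, at 2.5–3 h, for GAF and Zelda. For pSer5 at 2.5–3 h, 51 of 1257 X genes (4.06%) kept their peaks, against 25.1% on the arms and 21.9% over all chromosomes. For GAF at that stage 204 of 538 (37.9%) did, against 25.7% and 26.8%. For Zelda 18 of 608 (2.96%) did, against 10.9% and 9.98%. At 1–1.5 h, 15 of 763 bound X genes kept Zelda (1.97%, against 2.55% over all chromosomes), 49 of 566 kept GAF (8.66%, against 8.14%), 54 of 867 kept Pol II (6.23%, against 12%) and 22 of 1014 kept pSer5 (2.17%, against 12%). Pol II at 2.5–3 h was kept at 9 of 986 (0.913%, against 1.98%). On the arms 8.21% of bound genes kept GAF at 1–1.5 h, close to X, although the X regions lay above every arm. Pol II was kept at 12.3% and 2.18% of bound arm genes at the 2 stages. Its X genes were thus below the arms, although its X regions lay within their range. Loss at 1–1.5 h took in 736 X genes for Zelda (96.5%, against 95.7% over all chromosomes), 486 for GAF (85.9%, against 87.9%), 785 for Pol II (90.5%, against 83%) and 970 for pSer5 (95.7%, against 77.1%). Loss at 2.5–3 h took in 578 for Zelda (95.1%, against 83.2%), 285 for GAF (53.0%, against 66.7%), 975 for Pol II (98.9%, against 96%) and 1165 for pSer5 (92.7%, against 65.5%). Neighbouring genes can share a peak, so genes are not independent counts.

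Few X genes acquired a gene-end peak in mutant embryos. At 1–1.5 h, 10 unbound X genes gained Zelda (0.699%, against 0.219% over all chromosomes), 20 gained GAF (1.23%, against 0.362%), 12 gained Pol II (0.904%, against 1.37%) and 19 gained pSer5 (1.61%, against 3.05%). Later, at 2.5–3 h, the counts were 7 for Zelda (0.441%, against 0.343%), 14 for GAF (0.845%, against 0.287%), 15 for Pol II (1.24%, against 0.859%) and 11 for pSer5 (1.17%, against 2.03%).

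Among the 10 genes of sex determination and X counting, most lost their Zelda and Pol II peaks in the mutant, and a few kept them. With Zelda at 1–1.5 h, 8 of 10 were bound, of which 5 lost and 3 kept their peaks, where 95.7% of bound genes over all chromosomes were lost. With Pol II at 2.5–3 h, 9 of 9 bound genes were lost (96% over all chromosomes), and with pSer5 at 1–1.5 h, 10 of 10 (77.1%). These counts are near the shares of all bound X genes that were lost, 98.9% and 95.7%. Sxl (X:7074550-7098053) lost Zelda, from 3799 and 3282 bp under gene-end peaks to none in either mutant list, and likewise Pol II at 2.5–3 h, from 3827 and 3868 bp. Its gene-end pSer5 peaks at 2.5–3 h, 18010 and 16888 bp, were also lost, though shorter pSer5 peaks of 1653 and 696 bp in all remained inside that region. GAF at Sxl was kept at 2.5–3 h, with 2480 and 3023 bp in wild type against 650 and 1154 bp in the mutant.

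The X-dose genes sisA and upd1, a transcription factor and a JAK/STAT ligand, kept Zelda peaks at both stages, mostly over shorter spans. At sisA they measured 1327 and 1342 bp in wild type against 1034 and 1448 bp in the mutant at 1–1.5 h, so the 2 genotypes overlapped in length. Later, at 2.5–3 h, they measured 4723 and 3415 bp against 1975 and 1338 bp. Pol II at sisA was kept at 1–1.5 h, with 991 and 872 bp against 789 and 951 bp, and was lost at 2.5–3 h, from 1628 and 1015 bp. At upd1 Zelda at 1–1.5 h measured 4405 and 5170 bp in wild type against 934 and 1281 bp in the mutant, and at 2.5–3 h 6794 and 6926 bp against 4197 and 3625 bp. The other dose genes listed lost Zelda at 1–1.5 h, from 3557 and 4692 bp at sc and from 3935 and 2560 bp at run. There pSer5 at 2.5–3 h was kept at both (4638 and 4845 bp against 1196 and 2509 bp at run).

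The third gene of this list to keep Zelda at 1–1.5 h was roX1, with 565 and 364 bp of 2517 and 2501 bp. The roX genes carried broad wild-type Pol II and pSer5 peaks. At roX1 (X:3857230-3862697) pSer5 at 2.5–3 h covered 7644 and 7359 bp in wild type, and 1502 bp in 1 mutant list with none in the other. Pol II there covered 6276 and 6264 bp and was lost. In the region rule, which used no noncoding genes other than microRNAs and snRNAs, the same peaks appear at ec and yin. At roX2 Pol II at 2.5–3 h was lost from 2346 and 825 bp. At mof, the MSL acetyltransferase, and at snf, a splicing factor that acts on Sxl, no Zelda or GAF peak met an end in both wild-type lists, and both genes lost Pol II and pSer5 at each stage.

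**Figure D4:**
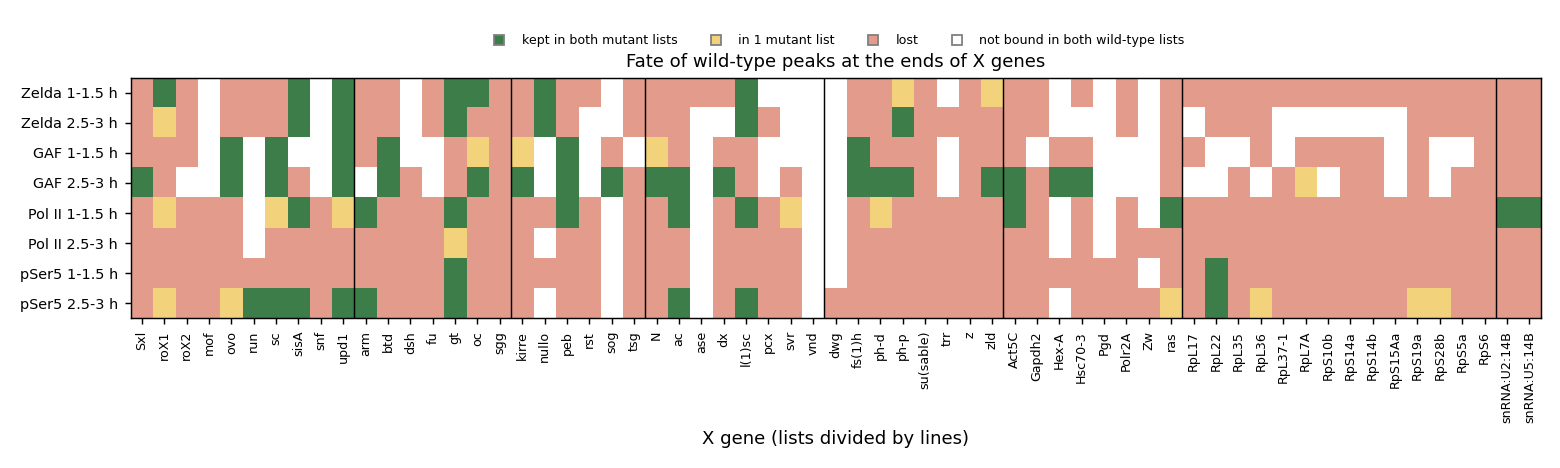
Each column is an X gene, in the order of its list with lines between lists, and each row an antibody and stage. Colours give the fate in the mutant of gene-end peaks present in both wild-type lists, and a gene in several lists is shown once. Lost peaks fill most of the Pol II and pSer5 rows, and kept ones lie mainly in the GAF row at 2.5–3 h and at sisA, upd1, gt, l(1)sc and ac.

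Of the 8 gap, pair-rule and segment polarity genes on X, Zelda bound 7 at each stage. At 1–1.5 h 5 were lost and 2 kept (95.7% of bound genes lost over all chromosomes, 96.5% on X). At 2.5–3 h 6 were lost and 1 kept (83.2% lost over all chromosomes, 95.1% on X). The gap gene gt (X:2427113-2428967) was the one kept at both. Its Zelda peaks shortened from 3342 and 3465 bp to 295 and 340 bp at 1–1.5 h. Pol II at gt at 1–1.5 h was longer in both mutant lists, 2210 and 997 bp against 715 and 661 bp. The head gap gene oc kept short Zelda peaks at 1–1.5 h, with 453 and 443 bp left of 3289 and 2362 bp, and lost them at 2.5–3 h. At btd, another head gap gene, Zelda was lost from 2134 and 2024 bp, and GAF was kept at both stages, with 929 and 2214 bp against 2166 and 2188 bp in wild type at 2.5–3 h. At arm, the fly beta-catenin of Wnt signalling, pSer5 at 2.5–3 h kept 631 and 514 bp of 14048 and 13098 bp.

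Of the 4 achaete-scute genes, ac, sc and l(1)sc kept peaks of more than 1 antibody, and ase, bound by Zelda alone at 1–1.5 h, lost it from 1901 and 1206 bp. Of the 9 proneural, neurogenic and neuroectoderm genes, Pol II at 1–1.5 h bound 7, with 3 lost, 2 kept and 2 in 1 mutant list, where 83% of bound genes over all chromosomes and 90.5% of those on X were lost. Pol II at ac (X:370031-370947) measured 1622 and 1139 bp in wild type against 1417 and 1751 bp in the mutant, and at l(1)sc 1174 and 1141 bp against 1886 and 695 bp. In both genes the 2 genotypes overlapped in length. The same antibody lost 7 of 7 at 2.5–3 h, where 96% were lost over all chromosomes. Zelda at l(1)sc fell short of its wild-type span, with 784 and 546 bp left of 7421 and 2533 bp. At N, the Notch receptor, whose peaks are shared with the neighbouring gene kirre, Zelda was lost from 4178 and 4242 bp, and GAF at 2.5–3 h was kept, with 2463 and 2516 bp of 5779 and 5768 bp.

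Of the 6 dorsoventral, gastrulation and cellularization genes, Zelda at 1–1.5 h bound 5, of which 4 were lost (95.7% lost over all chromosomes, 96.5% on X). The 1 kept was nullo, a gene of the forming cell furrow, at 612 and 788 bp of 1122 and 974 bp. Pol II at nullo was lost from 320 and 369 bp. At peb, a zinc-finger gene of germ-band retraction, Zelda was lost from 1448 and 1376 bp, while GAF at 2.5–3 h was kept (1177 and 1422 bp of 1873 and 1915 bp). Pol II at 2.5–3 h was lost from all 4 bound genes of this list, where 96% of bound genes over all chromosomes were lost.

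The X genes of chromatin and pioneer factors kept peaks mainly of GAF at 2.5–3 h. Zelda at 1–1.5 h bound 6 of 9, with 4 lost, none kept and 2 in 1 mutant list (95.7% lost over all chromosomes, 96.5% on X). Pol II at 2.5–3 h bound 8 and pSer5 at 2.5–3 h bound 9, and each lost all of them (96% and 65.5% of bound genes were lost over all chromosomes). Both are near the shares of all bound X genes that were lost, 98.9% and 92.7%. GAF at 2.5–3 h bound 6, kept 4 and lost 2, where 66.7% were lost over all chromosomes and 53.0% on X. At zld (X:19766465-19783548) Zelda at 1–1.5 h went from 2125 and 2119 bp to 261 bp in 1 mutant list and none in the other. Its gene-end pSer5 peaks at 2.5–3 h, 11161 and 12694 bp, were lost, as was Pol II, from 1850 and 1480 bp. GAF at zld at 2.5–3 h was kept, with 775 and 699 bp of 1609 and 1324 bp. Gene-end pSer5 peaks of zld were lost at 1–1.5 h as well. The wider pSer5 region of that stage (X:19771960-19784213) still counted as kept, with 591 and 1243 bp of mutant peaks.

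At fs(1)h, the fly BET protein, GAF spans stayed close in length, with 6291 and 6251 bp in wild type against 5738 and 6016 bp in the mutant at 2.5–3 h. At 1–1.5 h only 686 and 509 bp of 6271 and 5968 bp were left there. Zelda and Pol II at fs(1)h were lost at both stages. At the Polycomb gene pair ph-p and ph-d GAF at 2.5–3 h was kept, 841 and 777 bp of 4221 and 4034 bp at ph-p, and pSer5 was lost from 2909 and 4213 bp.

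Ribosomal protein genes of X lost Pol II and early Zelda, as most bound X genes did, and 1 of them kept pSer5. The 14 ribosomal protein genes were bound by Pol II and pSer5 at both stages in all 14 cases. All 14 lost Pol II at each stage, where 83% and 96% of bound genes were lost over all chromosomes and 90.5% and 98.9% on X. All 14 lost Zelda at 1–1.5 h (95.7% over all chromosomes, 96.5% on X), with peaks of 1547 and 1534 bp in wild type at RpS5a. With pSer5, 13 were lost at 1–1.5 h and 10 at 2.5–3 h, where 77.1% and 65.5% of bound genes over all chromosomes were lost. Of all bound X genes, 95.7% and 92.7% were lost. RpL22 was the one kept at both stages, with 1238 and 484 bp of 4935 and 4239 bp at 2.5–3 h, and 3 more had a peak in 1 mutant list at 2.5–3 h. RpS14a and RpS14b are near-identical neighbours that share peaks, so their separate values are uncertain. Of the 8 housekeeping and metabolism genes, GAF at 2.5–3 h bound 5 and kept 3 (26.8% kept over all chromosomes, 37.9% on X). Pol II at that stage lost all 6 that it bound (96% lost over all chromosomes, 98.9% on X). Act5C, a cytoplasmic actin, kept Pol II at 1–1.5 h, with 2509 and 2569 bp of 4004 and 3331 bp, and lost it at 2.5–3 h from 3700 and 3770 bp. Polr2A, which encodes the largest subunit of Pol II, lost Pol II at 2.5–3 h from 4398 and 4580 bp.

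The X also holds 2 snRNA genes, snRNA:U5:14B and snRNA:U2:14B, which lie side by side and share wild-type peaks. Pol II was kept there at 1–1.5 h and was longer in both mutant lists, 3792 and 3463 bp against 2395 and 2312 bp at snRNA:U2:14B, and 3008 and 3294 bp at snRNA:U5:14B. Pol II was lost there at 2.5–3 h, from 2802 and 2527 bp. Zelda, GAF and pSer5 were lost at both genes at both stages. IntS11, whose complex cuts the ends of these RNAs, covered 540 and 570 bp there in wild type at 1–1.5 h and 2409 and 2285 bp at 2.5–3 h.

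Other lists were bound less often. Of 54 microRNA genes, 4 to 13 were bound in wild-type embryos, depending on antibody and stage. GAF kept 2 at each stage, mir-2496 and mir-4962, of 4 bound at 1–1.5 h and 7 at 2.5–3 h. At the 2 stages 8.14% and 26.8% of genes bound by GAF were kept over all chromosomes, and 8.66% and 37.9% on X. Pol II at 1–1.5 h kept 1 of 6, mir-4957, with 263 and 394 bp of 1766 and 1642 bp (12% kept over all chromosomes, 6.23% on X). GAF at 2.5–3 h kept 3 of 4 bound imaginal selector genes (26.8% over all chromosomes, 37.9% on X), among them ct, a homeobox gene, with 894 and 1393 bp of 1397 and 1258 bp, and lz, a Runt-domain gene, with 2140 and 2522 bp of 3402 and 3865 bp. Zelda lost all 5 bound genes of that list at both stages, where 95.7% and 83.2% were lost over all chromosomes and 96.5% and 95.1% on X. Of 7 maternal and oogenesis genes, Pol II bound 4 and lost 4 at each stage (83% and 96% lost over all chromosomes, 90.5% and 98.9% on X), while ovo, a germline factor, kept GAF at 2170 and 2873 bp of 3045 and 3026 bp at 2.5–3 h. As markers of tissues that early embryos lack, 0 of 2 muscle and 0 of 4 cuticle genes were bound by Zelda, GAF, Pol II or pSer5 in wild-type embryos. Of 9 neuronal genes 2 to 4 were bound, elav among them with each of these antibodies at both stages. Its GAF peaks at 2.5–3 h measured 3419 and 3320 bp in wild type against 2797 and 2870 bp in the mutant.

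Wild-type IntS11 was sparse on X. It bound 40 of the 2194 X genes at 1–1.5 h (1.82%, against 5.29% on the arms) and 517 at 2.5–3 h (23.6%, against 39.5%). The longest IntS11 span at a listed X gene was that of roX1 at 2.5–3 h, 7409 and 6937 bp, where 1 of the 2 lists at 1–1.5 h had a peak, of 698 bp. At the ends of Sxl it was 2782 and 2619 bp, with no IntS11 peak there at 1–1.5 h. Inside Sxl, at mir-4956, 1 of the 2 early lists had a peak, of 654 bp. IntS11 was already present at 1–1.5 h at ac, sc, l(1)sc, upd1 and zld, over 448 and 428 bp at zld and 487 and 649 bp at ac. No IntS11 list of mutant embryos was analysed here.

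Larval Pol II was also less dense on X than on the arms, and most of its X regions were kept in zygotic mutants. It had 29.95 and 21.6 peaks per Mb of X in the 2 wild-type lists and 24.2 and 28.1 in the mutant ones, so these groups overlapped. The log2 ratio to the arms was −1.28 ± 0.03 in wild type and −1.16 ± 0.00 in the mutant (SD, n = 2), with X below every arm in 4 of 4 lists. Of 402 wild-type X regions 304 were kept (75.6%, against 77.4% over all chromosomes) and 45 lost (11.2%, against 10%), and 41 of 412 mutant regions were gained (9.95%, against 6.93%). Of 454 bound X genes 398 were kept (87.7%, against 88.2%) and 9 lost (1.98%, against 2.63%). All 13 bound ribosomal protein genes were kept, and Sxl kept 1146 and 982 bp against 1452 and 811 bp. The troponin genes up and wupA and the cuticle gene Cpr11A were among 44 X genes gained in zygotic mutants (2.53% of unbound X genes, against 2.72% over all chromosomes), with 389 and 1442 bp at up. The gene-end share of X peaks was 61.6% and 64.0% in wild type and 77.1% and 73.8% in the mutant, without overlap, though 2 lists a side cannot pass. It rose without overlap on the arms as well, from 62.3% and 68.1% to 72.3% and 70.2%. The difference between X and the arms changed by 6.59 points. The Ste genes, a cluster of near-identical copies, also lie among the longest kept regions, and their separate values are uncertain.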

How the data were processed

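ChIP-seq peak lists of 40 of the series' 76 samples were used, and the other 36 were not analysed here. As deposited, each list holds peak positions (chromosome, start and end, in bp on build dm6) and no heights, p-values or reads, so depth was unknown and no interval that needs it is given. Tools named in the submitters' processing notes are MACS2 2.2.7.1, deepTools 3.5.1, SAMtools 1.18, Bowtie2 2.2.5 and Trimmomatic 0.39, while order, thresholds and controls are not given in the sources used here. Limits of the caller can differ between lists and change peak numbers and lengths.

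Regions were merged peaks that both lists of a group overlapped by at least 1 bp. Windows by midpoint were X below 22 Mb, 2L 0–22 Mb, 2R 6–25 Mb, 3L 0–23 Mb and 3R 5–32 Mb. Genes were 14238 records (protein-coding, microRNA, snRNA) of a RefSeq Release 6 table without strand, exon or sequence columns, so gene starts and gene ends were pooled and no sequence is shown. All 76 listed symbols were found, and 2 (fog and su(f)) lie outside the X window. Peak lengths given for a gene are the summed lengths of the peaks that overlap its end windows.

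The 7 joint tests were exact permutations of genotype or stage within antibody (and stage), or sign flips over group means or comparisons, two-sided, with Benjamini-Hochberg adjustment over the 7 at 0.05. The tests of wild-type density and of the genotype change in density were checked on simulated data, and the other joint tests were not. All were run with Python 3.11.15, numpy 2.4.6 and scipy 1.17.1. Genes named were up to 4 per list by wild-type peak length, the longest lost and kept regions, the 5 regions in most lists, and zld and Sxl. Some genes (such as sc, run, ovo and snf) are in 2 lists. Genes singled out beyond this for their values (among them snRNAs, roX genes, fs(1)h, RpL22, and the regions found in mutant lists) were chosen after their values were seen. The members and gene lists were chosen with earlier results of these data known. Alternatives varied peak length, joining, windows, arms, overlap, the replicate block and single lists.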

Additional observations from a re-analysis of the deposited data

Results flagged for a closer look

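Zelda was the antibody whose X to autosome balance differed between genotypes in opposite directions at the 2 stages. Every mutant Zelda list lay above both wild-type lists at 1–1.5 h, with a mean difference in log2 density ratio of 0.88, and below both at 2.5–3 h, with a difference of −0.34. Mutant densities on X were 14.4 and 11.7 peaks per Mb at the earlier stage, where the arms had 12.8 and 11.7. They were 12.8 and 10.05 at the later one, where the arms had 33.9 and 26.2. With X below 21 Mb the differences were 0.64 and −0.48. The difference between stages was not tested for Zelda alone. Over the 4 antibodies the later minus the earlier effect was −0.56 (exact permutation p = 0.118).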

How the results depend on the processing

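The lower density of X in wild type passed in 11 of 11 alternatives (log2 −0.91 to −0.37, adjusted p 0.00684 to 0.0205) and in 20 of 20 fits that left out 1 list. The genotype change in gene-end share passed in 13 of 14 alternatives (−23.1 to −1.18 points), and with each list left out in turn it stayed between −12.3 and −12.0 points. Zelda and GAF alone gave −1.18 points (exact permutation, adjusted p = 0.602), an alternative chosen after seeing the data. The genotype change in density, which did not pass, changed sign with X below 21 Mb (−0.0648), with the autosomal windows also shortened (−0.00437) and with Pol II and pSer5 alone (−0.0741), and passed with Zelda and GAF alone (0.486, exact permutation, adjusted p = 0.0486), the last 3 chosen after seeing the data. The kept share changed sign when a peak had to overlap at least 50% of a region (0.623 points). The causes were not tested. Tests of stage, wild-type gene-end share and length stayed on the same side of the threshold in 9, 10 and 8 alternatives.

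With the replicate number as a block, the genotype change in gene-end share had p = 0.00214 (adjusted p = 0.00748), that in density p = 0.345 and the stage difference p = 0.520 (exact permutations), and no call changed. Same-numbered lists deviated in the same direction in 6 of 8 comparisons, and the labels give no shared batch. Motifs and promoter sequences were not run.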
